A study of Mus musculus with 12 samples.

Results

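The mitochondrially encoded transcripts described here are the mRNAs for 10 proteins of the respiratory chain and the ATP synthase that are made from mitochondrial DNA rather than from nuclear genes. They were taken by name: every probe whose identifier is mtDNA_ATP6, mtDNA_ATP8, mtDNA_COXI, mtDNA_COXII, mtDNA_COXIII, mtDNA_CytB, mtDNA_ND1, mtDNA_ND2, mtDNA_ND3 or mtDNA_ND4, which gave 10 of the 46628 probes of the array, 1 per transcript. RNA of primary mouse melanocytes was hybridised to 12 arrays on Illumina Mouse-6 BeadChips, with 2 arrays for each of 6 groups. Cultures were ATF2 mutant (genotype label ATF2-/-) and given 4-OHT and doxycycline, ATF2 mutant and given doxycycline without 4-OHT, or wild type (WT) and given doxycycline without 4-OHT, each after 12 h at 1% O2 (hypoxia) or in normoxia. All come from mice of mixed FVB/129/OlaHsd/C57Bl/6 background that lack Ink4a and carry a doxycycline-driven mutant N-Ras transgene and a Cre recombinase, activated by 4-OHT and driven by the tyrosinase promoter, that cuts the part of floxed Atf2 coding for its DNA binding domain. Mutant cultures without 4-OHT carry the same genotype label, although the recombination depends on the drug. By the labels the WT cultures had no 4-OHT, so that mutant cultures with 4-OHT differ from WT in both the drug and the genotype, but the study's methods describe both drugs for the primary melanocytes without exempting WT, and each comparison with WT is open to this doubt. The study speaks of biological and technical replicates of the arrays, and neither it nor the labels say which kind the 2 arrays of a group are, so p-values measure only the spread between these arrays.

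Mitochondrial DNA is a small circle present in many copies per cell. It is copied into long transcripts from both strands by a dedicated RNA polymerase, and these are cut at the tRNAs that lie between the coding regions and are then given short poly(A) tails. The mRNAs of the heavy strand promoter are thus born together, and their levels come to differ mainly by how long each lasts. The encoded proteins are core subunits of complex I (the ND proteins), complex III (CytB), complex IV (the COX proteins) and the ATP synthase (ATP6 and ATP8), which work beside many subunits imported from the cytosol. Low oxygen is known to shift cells towards glycolysis through HIF, with lactate dehydrogenase A (Ldha) among the induced genes.

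Between 10878 and 13032 probes were detected per array, and the brightest probe read between 12263 and 20619 units. All replicate 1 arrays lie on 1 slide and all replicate 2 arrays on another. The mean intensity of all probes except controls was 135 to 151 units on the replicate 1 arrays and 175 to 203 units on the replicate 2 arrays. Non-normalized intensities given below, and their overlaps, contain this difference between the slides. Atf2 was not detected on any of the 12 arrays, so its recombination could not be checked. The 4 named melanocyte markers were detected on all 12 arrays and the 4 myeloid markers on none. All 3 named keratinocyte markers were detected on 11 of 12 arrays, with a sum of 621 and 738 units in hypoxic WT cultures and 253 to 574 units on the other 10 arrays, and 2 or 3 of 8 fibroblast markers on each array. Xist was detected on 8 of 8 mutant and 0 of 4 WT arrays and Eif2s3y on 0 of 8 and 4 of 4, so sex and genotype cannot be told apart. Of 23 skeletal muscle markers 6 had a named probe, and all 6 were detected on every array of mutant cultures with 4-OHT and of mutant cultures without 4-OHT in normoxia, with a summed intensity of 6847 to 11251 units, against 1 or 2 of the 6 and a sum of 264 to 1212 units on the other 6 arrays. The sum of 4 Schwann cell markers divided the same arrays, with 792 to 1306 units against 157 to 451 units, although only 1 or 2 of the 4 were detected on any array. The part of these markers in the values below was not tested.

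Along the RefSeq mitochondrial genome (GRCm38.p6) the members follow each other in the order ND1, ND2, COX1, COX2, ATP8, ATP6, COX3, ND3, ND4 and, after the non-members ND5 and ND6, CYTB. The coding regions of ATP8 and ATP6 overlap and are known to share 1 mRNA, as do those of ND4L and ND4. A nuclear pseudogene, Gm10925 on chromosome 1, is listed with mt-Atp6 among its synonyms, and whether the ATP6 probes bind its RNA was not tested. With mtDNA_ND4L, mtDNA_ND5 and mtDNA_ND6, which are no members, the array covers all 13 protein genes among the 37 genes of this genome. Where each probe lies within its transcript is not given in the sources used here.

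Of the 10 members, 9 were above background on all 12 arrays and mtDNA_ND3 on none. The mtDNA_ND3 probe read 26.5 to 37.6 units, not above the control beads, although its gene lies between those of COXIII and ND4, whose probes were among the brightest of the array. ND3 is a membrane subunit of complex I, and its mRNA could not be followed here. On each array, 3 to 7 of the 9 detected members stood among the 50 brightest probes, and together they made up 0.787% to 1.43% of the summed signal. The brightness of different probes depends on their sequence and is not set against each other as transcript abundance.

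Among the complex I subunits, mtDNA_ND2 varied most. Its intensity was 660 and 4503 units in hypoxic mutant cultures with 4-OHT (replicates 1 and 2), 878 and 4768 in the same cultures in normoxia, 3436 and 4596 in hypoxic mutant cultures without 4-OHT, 756 and 4266 in these in normoxia, 2401 and 237 in hypoxic WT cultures, and 2722 and 3209 in normoxic WT cultures. The 4 low arrays were thus replicate 1 of 3 mutant groups and replicate 2 of hypoxic WT, and the highest array lay 20.1-fold above the lowest. mtDNA_ND1 read 6498 and 16335 units in hypoxic and 6036 and 16538 units in normoxic mutant cultures with 4-OHT. Without 4-OHT it read 11036 and 12149 units in hypoxic and 7523 and 14100 units in normoxic mutant cultures, against 10143 and 11263 units in hypoxic and 10706 and 12854 units in normoxic WT cultures. Here too replicate 1 was the dim array of 3 mutant groups, but the hypoxic WT arrays stood next to the normoxic ones. mtDNA_ND4 ranged from 8856 to 18371 units over the 12 arrays, with a median of 13515 units.

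**Figure D1:**
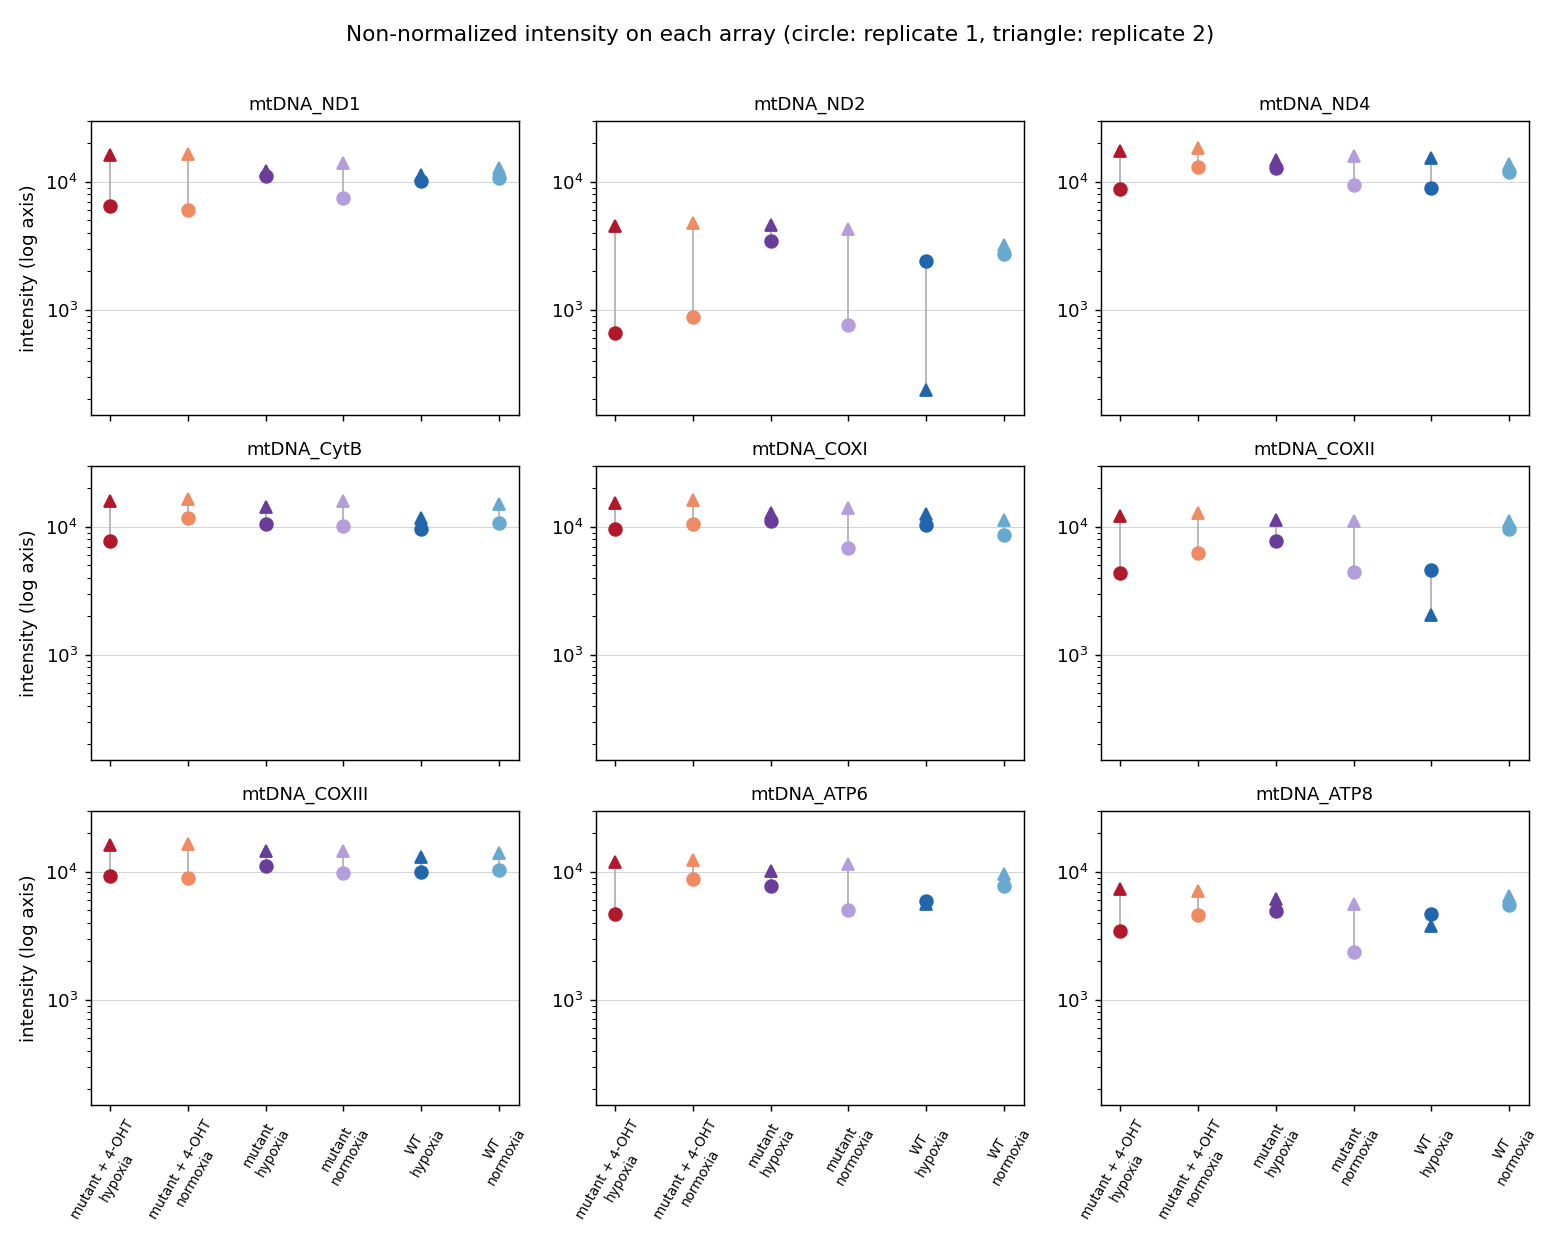
Non-normalized intensity (log axis) of the 9 detected members on each of the 12 arrays, by culture group, with circles for replicate 1, triangles for replicate 2 and a line joining the pair. mtDNA_ND2 spans 237 to 4768 units, while mtDNA_COXIII stays between 9004 and 16634 units.

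mtDNA_CytB, the mitochondrially encoded core of complex III, lay between 7737 and 16576 units, lowest on replicate 1 of hypoxic mutant cultures with 4-OHT. In complex IV, mtDNA_COXI, the catalytic core subunit, ranged from 6801 to 16298 units and mtDNA_COXIII from 9004 to 16634 units. mtDNA_COXII, which takes up the electrons from cytochrome c, behaved differently. It read 4378 and 12202 units in hypoxic and 6194 and 12936 units in normoxic mutant cultures with 4-OHT. Mutant cultures without 4-OHT had 7784 and 11344 units in hypoxia and 4410 and 11187 units in normoxia. WT cultures had 4635 and 2049 units in hypoxia, against 9605 and 11126 units in normoxia. Both hypoxic WT arrays lay below both normoxic WT arrays, which held for 34.3% of all tested probes on the normalized scale. The lowest of all 12 values was replicate 2 of hypoxic WT, as for mtDNA_ND2.

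The ATP synthase subunits followed each other. mtDNA_ATP6, part of the proton channel, read 4715 and 11981 units in hypoxic and 8787 and 12451 units in normoxic mutant cultures with 4-OHT, 7710 and 10063 units in hypoxic and 5023 and 11564 units in normoxic mutant cultures without 4-OHT, and 5903 and 5613 units in hypoxic against 7794 and 9681 units in normoxic WT cultures. For mtDNA_ATP8, a small subunit of the membrane part, the same order of arrays gave 3419 and 7361, 4589 and 7030, 4929 and 6165, 2363 and 5564, 4660 and 3767, and 5496 and 6516 units. In WT cultures both probes were lower in hypoxia without overlap between the groups, as were 34.3% of all tested probes on the normalized scale. Their normalized levels correlated at r = 0.88 over the 12 arrays, which share the same hybridisations.

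Ordered by normalized level, the groups did not fall into the same order for all members. mtDNA_COXII was highest in normoxic WT cultures, followed by normoxic mutant cultures with 4-OHT, hypoxic mutant cultures without 4-OHT, hypoxic mutant cultures with 4-OHT, normoxic mutant cultures without 4-OHT and hypoxic WT cultures, and every pair of neighbours in this order overlapped. mtDNA_ND2 was highest in hypoxic mutant cultures without 4-OHT, which did not overlap with the next group, normoxic WT. The other 4 groups followed with overlap between neighbours, hypoxic WT last. For mtDNA_ATP6, on the normalized scale, normoxic mutant cultures with 4-OHT, normoxic WT and hypoxic mutant cultures without 4-OHT came first, without overlap between these neighbours. Hypoxic mutant cultures without 4-OHT overlapped with the next group, normoxic mutant cultures without 4-OHT. The remaining groups also overlapped with their neighbours, again with hypoxic WT last. The share of all probes that separate likewise is not given for these pairs of neighbours. mtDNA_COXIII had overlap between all neighbours.

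The arrays of 1 group differed more for these probes than for most others. After normalization the residual standard deviation (SD) within groups was 1.70 on the log2 scale for mtDNA_ND2, which was the largest of all 14906 probes tested, and 0.62 for mtDNA_COXII, 0.38 for mtDNA_ATP8, 0.36 for mtDNA_ND1, 0.35 for mtDNA_ATP6, 0.21 for mtDNA_ND4, 0.18 for mtDNA_CytB, 0.16 for mtDNA_COXI and 0.13 for mtDNA_COXIII. The median was 0.0746 over all tested probes, below all 9 members, and 0.228 over the 487 brightest probes that are not of mitochondrial genes. COXIII, COXI, CytB and ND4 lay below the bright probes' median, and ND2, COXII, ATP8, ND1 and ATP6 above it. The residual SD depended on the level, with a median of 0.0165 over other probes at mean log2 levels of 6 to 6.5 and 0.0453 at 6.5 to 7. Over the 48 other probes at 13 to 13.5, the bin nearest to ND4, CytB, COXI and COXIII, it was 0.169. ND4 and CytB lay above that value, and COXI and COXIII below it. The direction of the difference depended on the group. Replicate 2 exceeded replicate 1 for 9 of 9 members in hypoxic mutant cultures with 4-OHT, 7 in normoxic ones, 4 in hypoxic mutant cultures without 4-OHT, 9 in normoxic ones, 1 in hypoxic WT cultures and 2 in normoxic WT cultures. For mtDNA_ND2 replicate 2 minus replicate 1 was 2.69, 2.35, 0.02, 2.11, -4.20 and -0.16 in the same groups on the log2 scale. Each slide held all 6 groups, and the sign of the difference between slides was not the same in all of them.

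**Figure D2:**
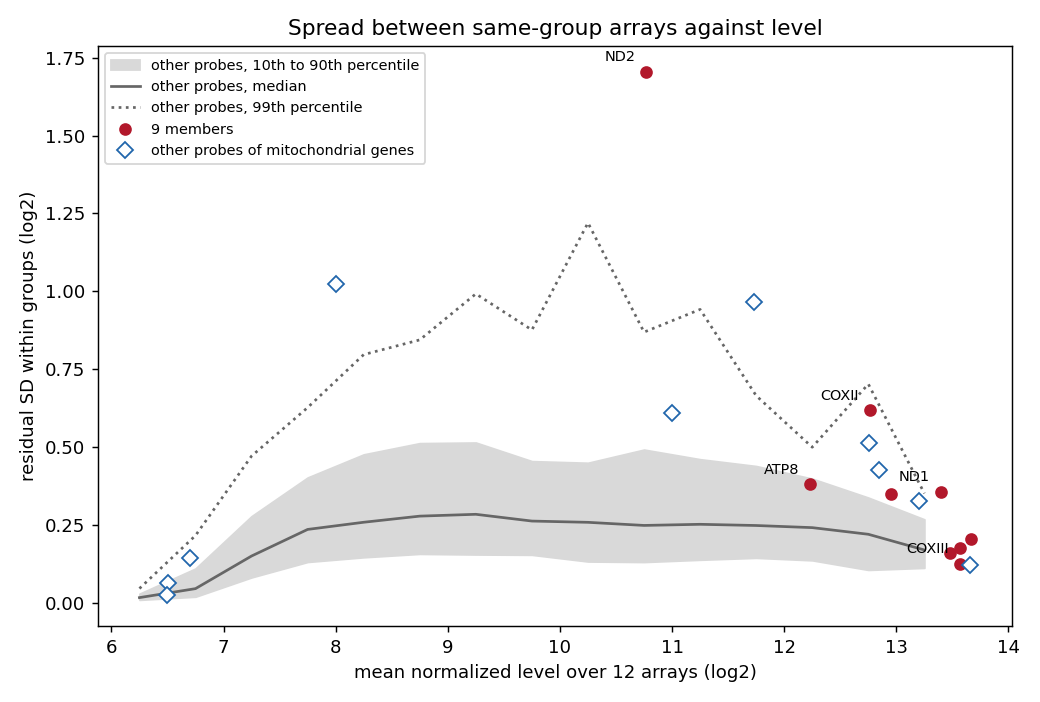
Residual SD within groups (log2) against mean normalized level (log2) for the 9 members (filled circles) and the other detected probes of mitochondrial genes (open diamonds), with the median, the 10th to 90th and the 99th percentile of all other tested probes in bins of level. mtDNA_ND2 lies at 1.70, far above the 99th percentile of probes of its level, and mtDNA_COXIII has the lowest value of the members, 0.13.

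The first comparison was the response to hypoxia in WT cultures. No member passed the test (adjusted p under 0.05), whereas 8.5% of all tested probes did. mtDNA_COXII came closest, with a log2 difference of hypoxia minus normoxia of -1.91 ± 0.57 (SE, n = 2 arrays each; adjusted p = 0.0911 in limma), made up of -1.17 on the replicate 1 slide and -2.66 on the replicate 2 slide. mtDNA_ND2 differed by -2.42 ± 1.58 (adjusted p = 0.411 in limma), but by -0.40 on the replicate 1 slide and -4.44 on the replicate 2 slide. mtDNA_ATP6 differed by -0.72, mtDNA_ATP8 by -0.63 and mtDNA_CytB by -0.32, each negative on both slides, whereas mtDNA_COXI was the sole member with a positive value, 0.19, also on both slides. Of the 9 members, 5 (ND2, COXII, ATP6, ATP8 and CytB) were lower in hypoxia without overlap on the normalized scale, as were 34.3% of all tested probes. The intensities of mtDNA_CytB overlapped. The median of the members was -0.32, against 0.00 over all tested probes. Without replicate 2 of hypoxic WT the difference was -1.09 for mtDNA_COXII (adjusted p = 0.349 in limma), -0.33 for mtDNA_ND2 and -0.46 for mtDNA_ATP6. Ldha did rise in the same arrays, to 7562 and 9140 units in hypoxic against 2229 and 2573 units in normoxic WT cultures (log2 difference 1.72, adjusted p = 6.66e-04 in limma). It belongs to a list of 16 mitochondrial HIF targets, of which 5 had a named and detected probe. Of these, 2 (40%) passed here, Ldha and Egln3, while Mxi1, Iscu and Egln1 did not. The hypoxia response of Ldha was 0.88 in mutant cultures with 4-OHT, without passing. Without 4-OHT it was 0.58 (adjusted p = 0.0148 in limma).

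In mutant cultures with 4-OHT, 0.0403% of all probes and no member passed in hypoxia minus normoxia. All 9 members had negative values, from -0.63 for mtDNA_ATP6 to -0.07 for mtDNA_ND1, with a median of -0.30, and 8 of 9 were negative on both slides. The values came mostly from the replicate 1 slide, where the median was -0.53, against -0.06 on the replicate 2 slide. Of the 9, 4 (ATP6, ATP8, COXI and CytB) were lower without overlap on the normalized scale, as were 12.6% of all probes. The intensities of all 4 overlapped. In mutant cultures without 4-OHT the values ran the other way for 8 of 9 members, from 1.19 for mtDNA_ND2 and 0.59 for mtDNA_ATP8 down to -0.07 for mtDNA_CytB, with a median of 0.21. Again no member passed, against 10.3% of all probes. This too came from the replicate 1 slide, with a median of 0.55, against -0.05 on the replicate 2 slide.

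**Figure D3:**
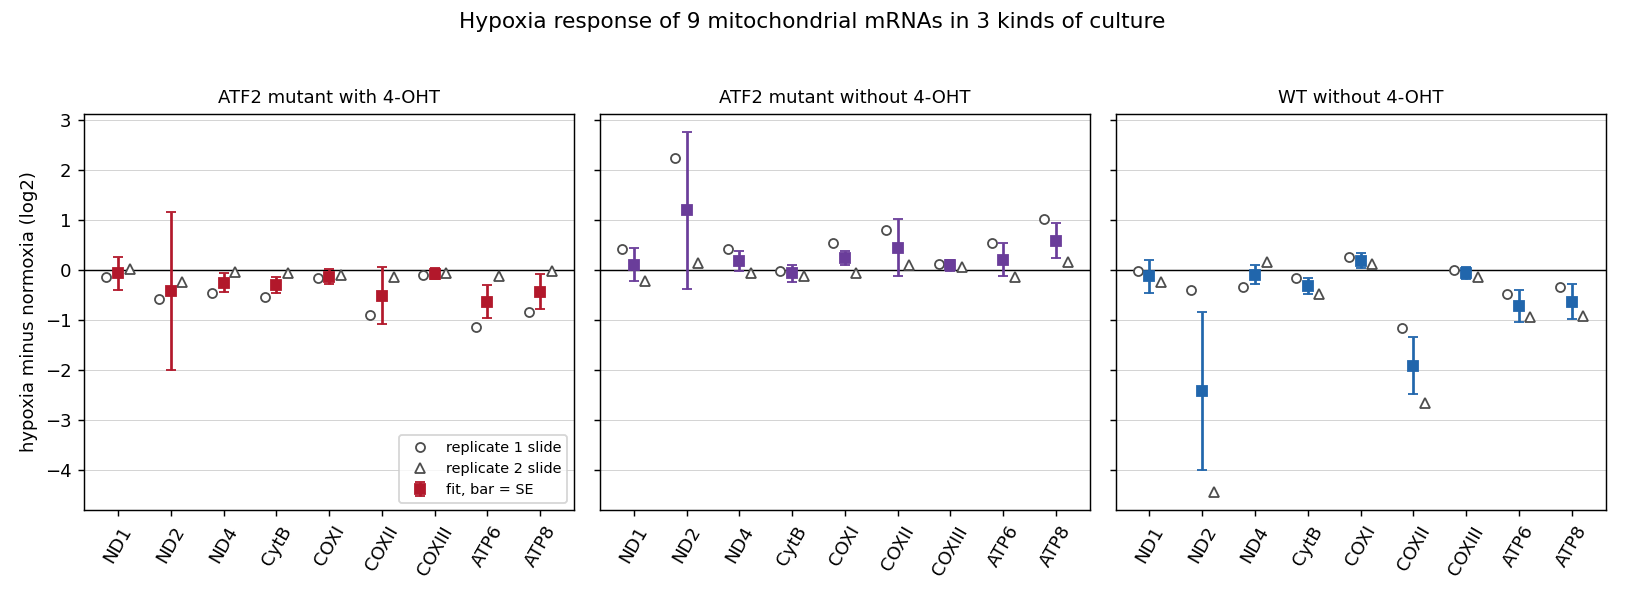
Hypoxia minus normoxia (log2) of the 9 members in the 3 kinds of culture, as squares with the SE of the fit, beside the difference on the replicate 1 slide (circles) and on the replicate 2 slide (triangles). In WT cultures mtDNA_COXII and mtDNA_ND2 have the lowest values, -1.91 and -2.42, and for mtDNA_ND2 the slides lie at -0.40 and -4.44.

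The difference between these responses was tested directly. For mutant cultures without 4-OHT minus WT all 9 members were positive, with a median of 0.27, and the largest were mtDNA_ND2 at 3.62 ± 2.23 (SE), mtDNA_COXII at 2.36 ± 0.81 and mtDNA_ATP8 at 1.22 ± 0.50. Without replicate 2 of hypoxic WT mtDNA_ND2 was at 1.52 and mtDNA_COXII at 1.54, and without replicate 1 mtDNA_ND2 was at 5.71 and mtDNA_COXII at 3.18, which then passed (adjusted p = 0.0464 in limma). None passed with all arrays, with a lowest adjusted p of 0.121 in limma for mtDNA_COXII, whereas 10.4% of all probes did. For mutant cultures with 4-OHT minus WT the largest values were 2.01 for mtDNA_ND2 and 1.40 for mtDNA_COXII, none passed and 1.13% of all probes did. For mutant cultures with minus without 4-OHT all 9 were negative, down to -1.60 for mtDNA_ND2, none passed and 4.29% of all probes did. Before adjustment, p was under 0.05 in limma for mtDNA_COXII in WT hypoxia, in mutant cultures without 4-OHT minus WT in hypoxia and in the difference of their responses, for mtDNA_ATP8 in that difference and in normoxia in mutant cultures with minus without 4-OHT and without 4-OHT minus WT, and for no other member in the 9 comparisons and 3 differences. These are 1 or 2 of 9 members, where the share of all tested probes with such a p was 24.5% in WT hypoxia, 33.3% in mutant cultures without 4-OHT minus WT in hypoxia, 25.6% in the difference of their responses, and in normoxia 20.1% in mutant cultures with minus without 4-OHT and 26% in mutant cultures without 4-OHT minus WT.

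The ATF2 genotype and 4-OHT were compared next. In normoxia, mutant cultures with 4-OHT minus WT gave values from -0.73 for mtDNA_ND2 to 0.28 for mtDNA_COXI, with a median of 0.00. No member passed, against 16.8% of all probes. In hypoxia the same comparison gave 1.29 ± 1.58 (SE) for mtDNA_ND2, made up of -2.16 and 4.73 on the 2 slides, and 1.20 ± 0.57 for mtDNA_COXII, made up of -0.14 and 2.55, and no member passed, against 9.01% of all probes. No member was negative or positive on both slides there.

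Mutant cultures with minus without 4-OHT in normoxia gave positive values for all 9 members, up to 0.85 ± 0.35 (SE) for mtDNA_ATP8 (adjusted p = 0.238 in limma). Of the 9, 4 (ATP6, ATP8, COXI and ND4) were higher without overlap on the normalized scale, as were 22.1% of all probes, while 3.8% of all probes and no member passed. The differences of mtDNA_ATP8 were 1.29 and 0.41 on the 2 slides. In hypoxia all 9 values were negative, with a median of -0.17, and 8 of 9 changed sign between the slides. Here 23.1% of all probes passed and no member.

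Mutant cultures without 4-OHT minus WT gave negative values for all 9 members in normoxia, with a median of -0.23 and the largest for mtDNA_ND2 at -0.96 and mtDNA_ATP8 at -0.85 ± 0.35 (SE; adjusted p = 0.185 in limma). Of the 9, 4 (ATP6, ATP8, COXII and ND1) were lower without overlap on the normalized scale, as were 35% of all probes. The intensities of all 4 overlapped. No member passed, against 11.5% of all probes. In hypoxia 8 of 9 values were positive, the largest being mtDNA_ND2 at 2.65 ± 1.58 (SE) and mtDNA_COXII at 1.65 ± 0.57. On the normalized scale, 5 (ND2, COXII, COXIII, ATP6 and CytB) were higher without overlap, as were 35.1% of all probes. The intensities of COXIII and CytB overlapped. mtDNA_COXII missed the threshold with an adjusted p of 0.0888 in limma and no other member came closer, whereas 20.1% of all probes passed. This comparison shares the hypoxic WT arrays with the hypoxia response of WT. Without replicate 2 of hypoxic WT the difference was 0.83 for mtDNA_COXII (adjusted p = 0.380 in limma) and 0.55 for mtDNA_ND2, and without replicate 1 it was 2.47 for mtDNA_COXII, which then passed (adjusted p = 0.0313 in limma), and 4.75 for mtDNA_ND2.

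For 6 of the member genes the array holds an additional probe, which carries a gene number of RefSeq in place of the mtDNA name, and 5 of these (ATP6, COX2, CYTB, ND1 and ND4) were detected. The sixth, for ND2, was at background on all 12 arrays, with 25.3 to 36.2 units, so that the swings of mtDNA_ND2 rest on a single probe. The additional COX2 probe read 2183 and 523 units in hypoxic against 5189 and 6536 units in normoxic WT cultures, and its normalized level followed mtDNA_COXII over the 12 arrays at r = 0.98. The additional ATP6 probe read 3454 and 1729 units in hypoxic against 9235 and 11261 units in normoxic WT cultures, a larger gap than that of mtDNA_ATP6, and it followed mtDNA_ATP6 at r = 0.83. It was the sole additional probe of a member gene to pass a test with all arrays and the settings used here, and those of COX2, CYTB and ND1 passed under some alternatives.

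For the additional ATP6 probe the hypoxia response of WT was -2.28 ± 0.48 (SE, log2; adjusted p = 0.0336 in limma), with -1.60 and -2.96 on the 2 slides. Mutant cultures without 4-OHT exceeded WT in hypoxia by 2.04 ± 0.48 (adjusted p = 0.0252 in limma), with 1.38 and 2.70 on the 2 slides. Without replicate 2 of hypoxic WT these values were -1.57 (adjusted p = 0.112 in limma) and 1.33 (adjusted p = 0.0905 in limma), and neither passed. The WT hypoxia call was also lost without either normoxic WT array (lowest value -2.31, highest adjusted p = 0.166 in limma) and without any 1 array of mutant cultures without 4-OHT, and the other call without either hypoxic array of those cultures (highest adjusted p = 0.121 in limma). The difference of the hypoxia responses, mutant without 4-OHT minus WT, was 2.54 ± 0.67 and did not pass (adjusted p = 0.0595 in limma), although it passed under 6 of 23 alternatives. The additional COX2 probe had -2.91 ± 0.90 in WT hypoxia (adjusted p = 0.0984) and did not pass either, although it did under 5 of 23 alternatives. The additional probes for CYTB (r = 0.86), ND4 (r = 0.65) and ND1 (r = 0.54) also correlated positively with the member probes, and all of them had negative values in WT hypoxia, -0.75, -0.30 and -0.95, without passing. The ND1 probes differed there. The additional one read 5023 and 4997 units in hypoxic against 7615 and 10685 units in normoxic WT cultures. For mtDNA_ND1 the values were 10143 and 11263 against 10706 and 12854 units, which overlap.

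**Figure D4:**
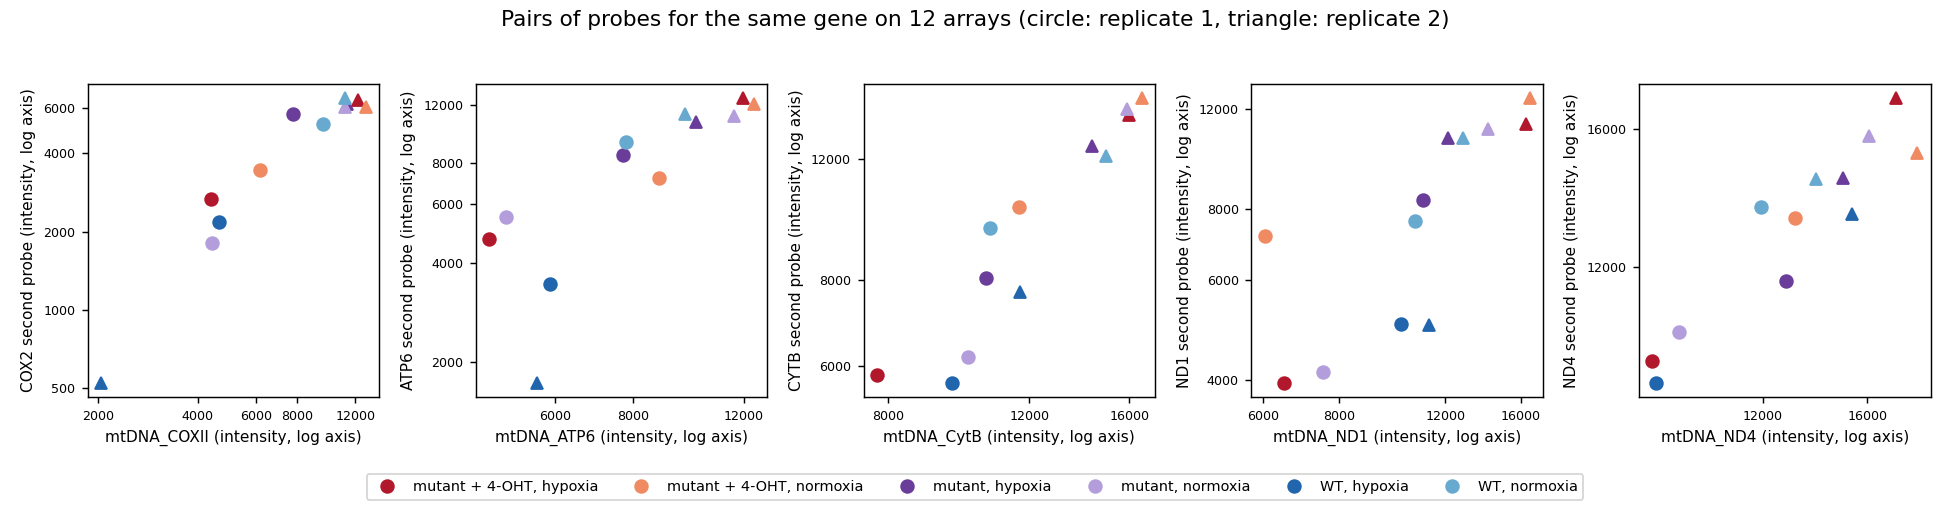
Non-normalized intensity of each member probe (horizontal, log axis) against that of the additional probe for the same gene (vertical, log axis) on 12 arrays, coloured by group, with circles for replicate 1 and triangles for replicate 2. Replicate 2 of hypoxic WT is the lowest point for both COX2 probes, at 2049 and 523 units, and for the additional ATP6 probe, at 1729 units.

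The mitochondrial probes that are no members did not all behave alike. mtDNA_ND4L, for a small complex I subunit, read 148 and 59.4 units in hypoxic against 556 and 714 units in normoxic WT cultures, a log2 difference of -2.37 that did not pass the test (adjusted p = 0.182 in limma). The background correction compresses values as dim as these, and over the alternatives the difference lay between -3.55 and -2.05 and passed under 2 of 23. The mtDNA_ND4 probe, for a coding region known to share that mRNA, had mean normalized levels of 13.57 in hypoxic and 13.66 in normoxic WT cultures. These 2 probes correlated at r = 0.58 over the 12 arrays, against 0.88 for ATP8 and ATP6. Why they differ was not tested. mtDNA_ND5 read 1752 and 1741 units in hypoxic against 2790 and 3877 units in normoxic WT cultures. The mtDNA_ND6 probe, for the sole protein gene of the other strand, was at background on all 12 arrays. An additional ND6 probe reached at most 85.8 units and was above background on 6 of 12 arrays. It read 36.6 and 41.0 units, not above background, in hypoxic WT cultures and 30.1 and 58.1 units, also not above background, in normoxic mutant cultures without 4-OHT, against 69.2 and 85.8 units, both above background, in normoxic WT cultures. Both differences passed (adjusted p = 0.0211 and 0.0160 in limma), but their size is not measured against arrays at background. In normoxia, mutant cultures with 4-OHT had 57.9 and 58.8 units, which also passed against WT (adjusted p = 0.0497 in limma), a call lost under 17 of 23 alternatives. The additional ND5 probe ran against mtDNA_ND5 (r = -0.69 over the 12 arrays), and it was dim, with 57.9 to 186 units.

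The 9 detected members moved together over the arrays: all 36 pairs correlated positively, from 0.10 to 0.89 with a median of 0.56, over 12 arrays that share their hybridisations. The named genes most like the mean of the members over the 12 arrays, of 4175 ranked, were Larp1 (r = 0.90), an RNA-binding protein of translation, Rbis (r = 0.89), a ribosome biogenesis factor, Myo9a (r = 0.88), an unconventional myosin, Micall1 (r = 0.87), a factor of endosome recycling, and Ssbp1 (r = 0.86), the mitochondrial protein that coats single-stranded DNA during replication. The mean was taken over centred log2 values that were not scaled to equal spread. Members with wide swings, such as mtDNA_ND2 (range 4.97), thus weigh more in it than mtDNA_COXIII (range 0.35). Larp1 was dim, at 35.8 to 108 units, and its normalized level spanned only 0.17 on the log2 scale. Larp1 and Rbis were lowest on replicate 1 of normoxic mutant cultures without 4-OHT and Myo9a and Micall1 on replicate 1 of hypoxic mutant cultures with 4-OHT. Ssbp1 was lowest, and not above background, on the array with the lowest mtDNA_ND2. Its intensity was 55.2 and 347 units in hypoxic and 180 and 301 units in normoxic mutant cultures with 4-OHT. Mutant cultures without 4-OHT had 313 and 379 units in hypoxia and 161 and 324 units in normoxia. WT cultures had 284 and 40.4 units in hypoxia and 316 and 355 units in normoxia. Ssbp1 thus had the same 4 lowest arrays as mtDNA_ND2, and it passed in none of the 9 comparisons.

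Of 42 genes for the replication, transcription and RNA processing of mitochondrial DNA, 10 had a named and detected probe. Over the 9 comparisons only 1 of them passed in any: Fastkd1, of a family of mitochondrial RNA-binding proteins, in mutant cultures with minus without 4-OHT in hypoxia (adjusted p = 0.0138 in limma, lost under 6 of 22 alternatives). It read 31.7 and 45.5 units with and 52.3 and 67.1 units without 4-OHT there, and it was above background on only 2 of 12 arrays, so that no size is given. In that comparison 1 of 10 is 10%, below the 23.1% of all probes that passed. Of 11 factors that set nuclear mitochondrial genes, 3 were detected, and Ppargc1b, a coactivator of mitochondrial biogenesis, was the sole one to pass, in 4 comparisons. It was higher in mutant cultures without 4-OHT than in WT in hypoxia by 0.42 and in normoxia by 0.23, with 205 and 306 units against 148 and 179 units in hypoxia. The call in normoxia was lost under 15 of 23 alternatives, that in hypoxia under 2, that of mutant cultures with minus without 4-OHT in hypoxia under 3 and that of hypoxia in mutant cultures without 4-OHT under 20. Of all probes, 11.5%, 20.1%, 23.1% and 10.3% passed in these comparisons, in the same order, beside 1 of 3 detected factors in each.

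The nuclear partners of the members could be followed through 46 of 93 subunits and assembly factors of complexes I, III, IV and V and 33 of 78 mitochondrial ribosomal proteins. In mutant cultures with 4-OHT minus WT in normoxia, 1 subunit rose and 5 fell, with a median log2 difference of -0.56, and 0 ribosomal proteins rose and 2 fell, with a median of -0.45, against a median of 0.00 for the members. The share that passed, 13% of the subunits and 6.06% of the ribosomal proteins, was below the 16.8% of all probes. These cultures are also among those with the high muscle marker signal given above, whose part in these values was not tested. Their 2 normoxic arrays were the least alike of any group, with r = 0.946 over the tested probes, against 0.973 to 0.996 in the others. Between them 5.86% of tested probes differed 2-fold or more. In hypoxia the same comparison had a median of -0.06 for the subunits and -0.05 for the ribosomal proteins. In WT hypoxia, 1 of 46 subunits (2.17%) and 1 of 33 ribosomal proteins (3.03%) passed, below the 8.5% of all probes. The subunit was Uqcrc1, a core protein of complex III, which fell to 1335 and 1678 units in hypoxic against 1763 and 2505 units in normoxic WT cultures (log2 difference -0.73, adjusted p = 0.00367 in limma). The ribosomal protein was Mrps11, with 222 and 311 units in hypoxic against 314 and 495 units in normoxic WT cultures. Its log2 difference was -0.84 (adjusted p = 0.0180 in limma), a call lost under 6 of 23 alternatives. In WT hypoxia the median was -0.10 for the subunits and 0.02 for the ribosomal proteins, against -0.32 for the members.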

How the data were processed

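The authors amplified total RNA, hybridised it to Mouse-6 BeadChips and summarised each probe with BeadStudio 3.0. The main input was the deposited table of linear intensities before normalization. Its deposited detection p-values compare a probe with the array's negative control beads. The authors' normalized values, intensities after background subtraction and cubic spline normalization, were used only as an alternative, with values under 16 set to 16 before log2.

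With neqc (limma 3.58.1, R 4.3.3; offset of 16) the background was removed, arrays were brought to common quantiles and values were put on the log2 scale. This step infers the background from the detection p-values. In it, 5 bright probes with a detection p just above 0 widen the inferred background SD to 100 to 178 units, against 5.86 to 7.00 without them, which compresses changes of dim probes. Probes entered the tests where 1 or more arrays had a detection p under 0.01 (14906 probes, 43 controls left out). In 1 limma fit of 6 group means to 12 arrays, with 6 residual degrees of freedom, 9 comparisons and 3 differences of hypoxia responses were tested, two-sided, with Benjamini-Hochberg adjustment over all kept probes and a threshold of 0.05. The fit was tested on simulated data. The number of arrays limits the precision.

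Additional probes were named by reading the number in the probe identifier as a RefSeq gene number (82.6% of 11857 numbers are in the RefSeq table of GRCm38.p6). Same-numbered arrays share a slide by their labels, and over 15 pairs of groups their deviations correlated from -0.21 to 0.63 (median 0.21, 12 pairs over 0.1). The members and the companion lists were chosen with earlier results of these data known. The text names every member, the 5 genes most correlated with the members' mean, and up to 3 genes of a list in a comparison. The additional probes, the genes Egln3, Ldha, Uqcrc1, Mrps11, Cox7a2l, Ppargc1b, Fastkd1 and Ssbp1 and the arrays left out beside a result were chosen after their values were seen. As alternatives, the fit was repeated with no background correction, the authors' normalized values, a background without the 5 probes, median scaling, no normalization between arrays, an offset of 50, no filter, detection in both replicates of some group as the filter, a replicate block for the slide, only the arrays compared, an intensity trend, and each array left out in turn. Figures were made with matplotlib 3.10.9 in Python 3.11.15.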

Additional observations from a re-analysis of the deposited data

Results flagged for a closer look

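The hypoxia response of the additional ND6 probe differed between culture types by the test of the difference itself: mutant without 4-OHT minus WT was 0.23 ± 0.04 (SE, log2; adjusted p = 0.0126 in limma), at 30.1 to 85.8 units on all arrays. The probe was above background on 6 of 12 arrays, and this value ranged from 0.17 to 2.45 over the alternatives, with the call lost under 7 of 23, so its size is not measured. Among the named genes of the companion lists, the same difference passed for Ldha at -1.14 (adjusted p = 0.00498 in limma), for Egln3, an oxygen-sensing prolyl hydroxylase, at -0.74 (adjusted p = 0.00178), for Uqcrc1 at 0.84 (adjusted p = 0.00450) and for Mrps11 at 0.96 (adjusted p = 0.0286), the last lost under 9 of 23 alternatives. Cox7a2l, of the subunit list, also passed, at -2.44 (adjusted p = 0.00814 in limma), opposite in sign to Uqcrc1. Of all probes, 10.4% passed in this difference. In mutant cultures with minus without 4-OHT the hypoxia response of Cox7a2l differed by 2.35 (adjusted p = 0.0161 in limma), where 4.29% of all probes passed. Its values over the alternatives are not given. Egln3 also differed in its hypoxia response between mutant cultures with and without 4-OHT, by 1.09 (adjusted p = 5.93e-04 in limma). Its intensity was 277 and 367 units in hypoxic against 163 and 205 units in normoxic mutant cultures with 4-OHT, 50.9 and 70.7 against 165 and 216 units in mutant cultures without 4-OHT, and 82.5 and 122 against 27.0 and 39.5 units in WT cultures. Neither normoxic WT array and only 1 of the hypoxic arrays of mutant cultures without 4-OHT was above background for Egln3. Over the alternatives its values ranged from -4.29 to -0.56 for mutant without 4-OHT minus WT and from 0.87 to 3.19 for mutant with minus without 4-OHT, each passing under 22 of 23.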

How the results depend on the processing

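Over 23 alternatives to 108 member values (2484 in all), 2460 kept their side of the threshold, 24 passed newly, and none that passed under either setting changed sign, while 117 values that passed under neither did. The counts of members that passed, 0 of 9 in every comparison, became 1 or 2 under some alternatives, and the cause was not tested. Without normalization between arrays, 2 members passed in mutant with 4-OHT minus WT in hypoxia (COXII and ND2), 1 in mutant with minus without 4-OHT in hypoxia (ND2), 2 in mutant without 4-OHT minus WT in hypoxia, 1 in the hypoxia response of mutant cultures without 4-OHT (ND2) and 2 in that of WT. In WT hypoxia this setting gave mtDNA_ATP6, mtDNA_COXII and mtDNA_ND2 the same SE of 0.35. With the main settings their SEs were 0.32, 0.57 and 1.58. Passes under this setting thus do not reflect each probe's own spread. mtDNA_COXII alone passed (1 of 9) in mutant without 4-OHT minus WT in hypoxia and in WT hypoxia with no background correction, with the background estimated without the 5 bright probes and with an intensity trend, and in WT hypoxia with the authors' normalized values (adjusted p = 0.0430 in limma). Of the differences of hypoxia responses, mutant without 4-OHT minus WT passed for mtDNA_COXII under 4 alternatives (no normalization between arrays, the background without the 5 probes, an intensity trend, and without replicate 1 of hypoxic WT) and for mtDNA_ND2 under 1 (no normalization between arrays), and mutant with 4-OHT minus WT for mtDNA_ND2 under 1 (no normalization between arrays). Leaving out arrays in turn gave 0 to 1 in mutant with minus without 4-OHT in normoxia and in the hypoxia response of mutant cultures without 4-OHT (COXI, without replicate 2 of normoxic mutant cultures without 4-OHT), and 0 to 1 in mutant without 4-OHT minus WT in hypoxia (COXII, without replicate 1 of hypoxic WT). With the slide as a replicate block the counts stayed at 0, with a lowest adjusted p of 0.111, and it changed no member's call.

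The calls of the additional ATP6 probe were lost under 10 of 23 alternatives in WT hypoxia, including median scaling and no filter, and under 5 of 23 in mutant without 4-OHT minus WT in hypoxia, with log2 values of -2.99 to -1.57 and of 1.33 to 2.75. That of the additional ND6 probe in mutant without 4-OHT minus WT in normoxia was 0.0078 (adjusted p = 0.995 in limma) in place of -0.15 without normalization between arrays, and -1.54 with the authors' normalized values. The additional COX2 probe passed under 6 of 23 alternatives in mutant without 4-OHT minus WT in hypoxia (1.29 to 4.21) and under 5 in WT hypoxia (-4.37 to -1.45). With only the arrays compared, CYTB passed in WT hypoxia and ND1 in both. The additional ATP6 probe also passed under 6 in mutant with 4-OHT minus WT in hypoxia. With 2 arrays a group, 1 array can set a value. The probes of COXIII, ND4, CytB, ND1 and COXI read near the top of the array, and saturation was not tested.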
